A study of Mus musculus with 8 samples.

Results

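Glycosyltransferases and glycan sulfotransferases build the sugar chains that coat the mucus and the cell surface of the colon. The genes described here are those whose platform symbol starts with Galnt, B3gnt, B3galt, B4galt, B4galnt, St3gal, St6gal, St8sia, Gcnt, Chst or Fut followed by a number. That rule took 78 of the 17711 genes named on the array, measured by 142 probes, and each gene was represented by its probe with the highest mean signal. RNA came from the distal colon of male wild-type C57BL/6 mice of 10 to 12 weeks and was hybridised to 8 Illumina bead arrays, 4 of surface epithelium and 4 of crypt base epithelium, both isolated by laser capture microdissection. The design text has both kinds of sample taken from each of 4 mice, while the labels do not say which replicate number belongs to which mouse. No treatment or engineered allele was named for either group. The comparison asks how transcript levels differ between the crypt base, where cells divide, and the surface, where they end their path.

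Mucin-type O-glycans begin when a Galnt enzyme links N-acetylgalactosamine to serine or threonine of a protein. The chain is then extended by galactosyl- and N-acetylglucosaminyltransferases, branched by Gcnt enzymes, and capped with sialic acid by St3gal, St6gal and St8sia enzymes or with fucose by Fut enzymes, while Chst enzymes add sulfate. These steps take place in the Golgi, and colonic mucus and the glycocalyx of colonocytes are heavily modified by them.

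At the surface 3 of the 4 Gcnt genes, which branch O-glycans and poly-N-acetyllactosamine, rose. Of 7 sialyltransferase genes tested in the St3gal, St6gal and St8sia families, 2 rose and 2 fell. Of the 78 genes, 43 were tested, because their probe had a detection p under 0.05 on at least 4 of the 8 arrays. At the surface 8 of the 43 were higher and 5 were lower by limma at an adjusted p of 0.05, with the replicate number as a block. Those that rose were Gcnt1, Gcnt2, Gcnt3, St3gal4, St8sia5, B3galt5, B4galnt2 and Galnt6, and those that fell were B3galt6, St3gal6, Galnt10, St6gal1 and Galnt2. Over all 9494 genes tested, 12.1% were higher and 10.1% lower, 22.2% in all, against 18.6% higher, 11.6% lower and 30.2% in all for the 43. The median change of the 43 was 0.02 on the log2 scale and that of all genes tested -0.01. Each of the 13 past the threshold was detected on all 8 arrays and had 4 pairs of one sign. A fit with the replicate number as a block favours such genes, so their one-signed pairs are no separate evidence. Of the 43 tested, 20 had 4 pairs of one sign, against 43.7% of all genes (21.6% upward and 22.1% downward). The 13 past the threshold kept their sign in each of 14 alternative fits, most of which could not have turned it. Leaving out a number keeps the sign where all pairs moved the same way. Changing the block, the detection filter or the form of eBayes leaves the estimate as it was.

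How many of the 13 passed depended on which samples and terms entered the fit. Without the replicate block 5 rose and 2 fell (Gcnt1, Gcnt2, St3gal4, B3galt5, B4galnt2, B3galt6 and St3gal6), against 7.25% and 6.1% of all genes, 13.3% in all. Without replicate 1 limma called none of the 13 nor any other gene (0.0%), although all 13 had an unadjusted p under 0.05 and the lowest adjusted p of any gene was 0.05002. Without replicate 4 Gcnt1 and St3gal4 passed, where 6.11% of all genes were higher and 2.31% lower. Without replicate 3 Gcnt1, St3gal4, B3galt5 and Galnt10 passed, against 6.73% higher and 4.26% lower. Without replicate 2, where 12.2% were higher and 12.1% lower, all of the 13 but Gcnt3 and Galnt2 passed, and B4galt1 and B3gnt8 did as well. Without surface 4, whose array stood apart from the others, 5 rose and 1 fell, against 7.06% and 5.76%. Every fit without surface 4 took the block as a random effect, a form that gave 8 higher and 4 lower with all 8 arrays. In the other 8 alternatives 12 or 13 of the genes passed, where the share of all genes past the threshold was 23.6% with the block as a random effect, 22.6% with centred arrays, 22.3% with cyclic loess and 22.4% with signals floored at background. That share was 10.5% without a filter on dim probes, 25.0% for probes detected on all 8 arrays, 21.1% with detected probes averaged and 22.4% with eBayes in its trend and robust form.

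Other cells were captured with the epithelium in both regions. Of 9 epithelial markers, 8 were detected on all 8 arrays and 5 rose. These were Krt8, a simple epithelial keratin (0.79 ± 0.13, SE), Krt19 (0.79), Vil1 (0.76), Cldn7 (0.68) and Cdx2 (0.57). The summed linear signal of epithelial markers ran from 7945 to 10542 at the crypt base and from 13173 to 14961 at the surface. The probe of Epcam, an epithelial adhesion molecule, was dim, with mean log2 signals of 5.40 at the crypt base, under background, and 5.68 at the surface, and was detected on 5 arrays. Epcam (0.28), Krt18 (0.26), Cdh1 (0.39) and Cdx1 (-0.29) did not pass. All 8 markers of surface colonocytes tested rose, with a median of 1.78 on the log2 scale. The summed signal of surface colonocyte markers was 6442 to 15280 at the crypt base and 19585 to 26306 at the surface. Among smooth muscle markers the median was -0.80, 0 of 8 passed in limma (5 were lower at an unadjusted p under 0.05), and their summed linear signal ran from 7858 to 30397 at the crypt base and from 3038 to 14825 at the surface. Of the markers of goblet cells 2 of 12 rose (16.7%), of enteroendocrine and tuft cells 2 of 8 fell (25.0%), of fibroblasts 1 of 10 (10.0%) and of endothelium 1 of 7 (14.3%) rose, and of leukocytes 0 of 7 passed (2 were higher at an unadjusted p under 0.05). Over all genes tested 12.1% were higher and 10.1% lower, so these counts are not read as shifts of a cell type. The summed signal was 30065 to 58477 at the crypt base and 44919 to 66204 at the surface for goblet markers, and 2144 to 5045 and 2088 to 5864 for leukocyte markers. It was 2467 to 4251 and 2646 to 3541 for fibroblast markers, 968 to 1301 and 1209 to 1472 for endothelial markers, and 2195 to 2750 and 1675 to 2258 for enteroendocrine and tuft markers. Under background on all 8 arrays were 1 of the 9 surface colonocyte, 1 of the 13 goblet, 1 of the 8 endothelial and 3 of the 12 leukocyte markers on the array. None of the epithelial, smooth muscle, fibroblast or enteroendocrine and tuft markers were. Fewer cells of a type and less RNA per cell cannot be told apart in such samples, and the part these cells have in the changes below was not tested.

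**Figure D1:**
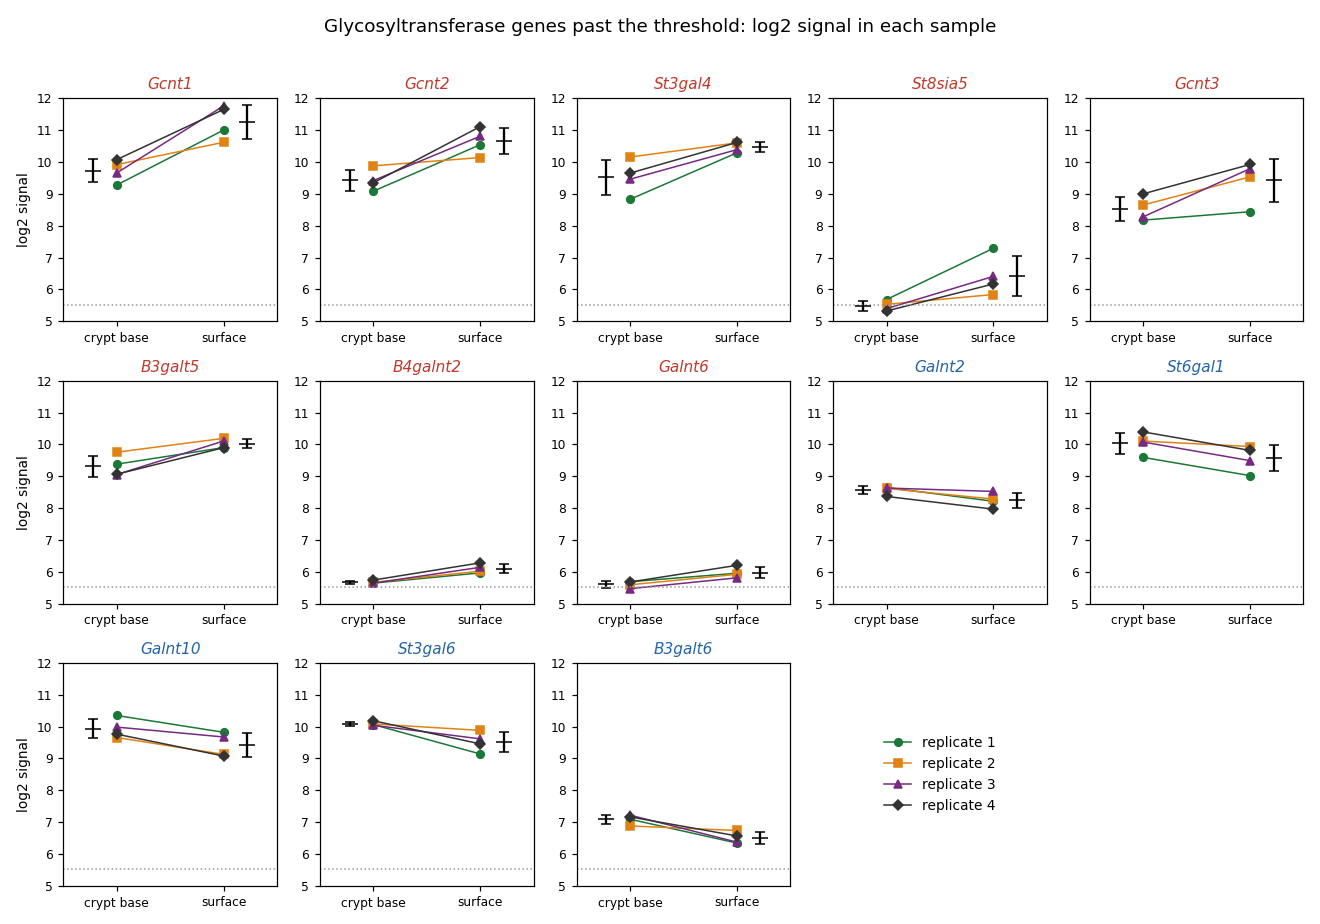
Log2 signal (y axis) at the crypt base and the surface (x axis) for the 13 genes past the threshold, with lines joining samples of the same replicate number, black bars for the mean and SD of 4 samples, and a dotted line at the background level of 5.52. Red names are genes that rose and blue names genes that fell, and every line runs in the direction of its gene, from 1.53 for Gcnt1 to -0.58 for B3galt6.

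All 4 Gcnt genes were tested and 3 rose, where 12.1% of all genes were higher. Their median change was 1.06 on the log2 scale, and Gcnt1 and Gcnt2 had the largest measured changes of the 43 genes. Gcnt1 (gene ID 14537) encodes the enzyme that starts the core 2 branch of O-glycans. Its log2 signals were 9.28, 9.92, 9.66 and 10.08 in crypt base samples 1 to 4 and 11.01, 10.62, 11.77 and 11.65 in surface samples 1 to 4. All surface samples lay above all crypt base samples. Their means were 9.74 ± 0.35 and 11.26 ± 0.54 (SD, n = 4 each), and limma gave an increase of 1.53 ± 0.22 (standard error of the fit, SE), 2.88-fold, at an adjusted p of 0.0101. A further detected probe of Gcnt1 changed by 1.37 ± 0.27.

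Because Gcnt1 had the largest measured change, the promoter windows listed for it are shown. They run from 250 bases before to 50 bases after each start that RefSeq gives on assembly GRCm38.p6, lie on the minus strand of chromosome 19, and are written 5′ to 3′. Capitals mark matches to GGGNGTGG, a sequence bound by Klf4, which is a factor named in the series title, sought on both strands.
Gcnt1 start 1, chr19:17372795-17373094: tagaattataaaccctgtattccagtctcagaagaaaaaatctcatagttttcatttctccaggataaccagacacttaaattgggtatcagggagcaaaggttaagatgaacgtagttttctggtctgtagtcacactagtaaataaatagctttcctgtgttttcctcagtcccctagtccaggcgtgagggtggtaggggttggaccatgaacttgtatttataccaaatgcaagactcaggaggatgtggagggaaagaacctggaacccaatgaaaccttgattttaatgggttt
Gcnt1 start 2, chr19:17356618-17356917: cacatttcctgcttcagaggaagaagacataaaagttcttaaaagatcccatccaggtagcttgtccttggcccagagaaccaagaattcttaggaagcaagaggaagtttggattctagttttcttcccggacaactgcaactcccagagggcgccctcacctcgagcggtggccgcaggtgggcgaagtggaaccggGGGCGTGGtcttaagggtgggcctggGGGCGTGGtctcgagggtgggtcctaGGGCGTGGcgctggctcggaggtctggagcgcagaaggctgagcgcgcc
Gcnt1 start 3, chr19:17339456-17339755: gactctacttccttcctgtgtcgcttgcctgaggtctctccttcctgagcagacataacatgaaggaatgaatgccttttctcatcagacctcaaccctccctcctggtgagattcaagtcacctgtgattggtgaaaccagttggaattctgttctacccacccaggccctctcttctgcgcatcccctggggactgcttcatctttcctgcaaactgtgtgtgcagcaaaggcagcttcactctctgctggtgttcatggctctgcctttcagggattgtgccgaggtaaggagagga

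The window of start 2 holds 3 such matches, none of which overlap, and the windows of starts 1 and 3 hold none. At least 1 match is found in 17.6% of all 32851 promoter windows and at least 3 in 0.600%. Windows were listed for 10 of the 13 genes past the threshold, 20 windows in all, of which 3 hold a match, a share near that of all windows. ATCAAAG, a core bound by Tcf7l2, and CAAAGTCCA, bound by Hnf4a, which may overlap in CAAAG, are in 3.73% and 0.475% of all windows and in none of the 20. A match describes the letters of a window, and whether a factor binds there was not measured.

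Gcnt2 (gene ID 14538) encodes the I-branching enzyme, which turns linear poly-N-acetyllactosamine into the branched I antigen. Crypt base samples 1 to 4 gave log2 signals of 9.09, 9.88, 9.42 and 9.35, and surface samples gave 10.55, 10.14, 10.81 and 11.12. The groups did not overlap, and the sample nearest to the crypt base was surface 2. Means of 9.44 ± 0.33 and 10.66 ± 0.41 (SD, n = 4 each) lay 1.22 ± 0.24 (SE) apart, which is 2.33-fold (limma, adjusted p = 0.0203). Gcnt1 and Gcnt2 had measured changes of 2-fold or more, and the folds of genes whose crypt base signal lies at background, such as St8sia5 below, are too small to be ranked against them.

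Gcnt3 (gene ID 72077) encodes the mucin-type branching enzyme that can form core 2, core 4 and I branches. Its signals were 8.18, 8.65, 8.28 and 9.0 at the crypt base and 8.44, 9.54, 9.80 and 9.93 at the surface. Surface 1 lay within the range of the crypt base, so the groups overlapped, while every pair rose. The change was 0.90 ± 0.19 (SE), or 1.86-fold, from 8.53 ± 0.38 to 9.43 ± 0.68 (SD, n = 4 each), with an adjusted p of 0.0245 by limma and 0.114 without the replicate block. Its other detected probe changed by 0.41 ± 0.18 and did not pass (adjusted p = 0.174 in a fit over all detected probes). Gcnt7, a family member whose probe lay near background (5.60 and 5.62), changed by 0.02.

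**Figure D2:**
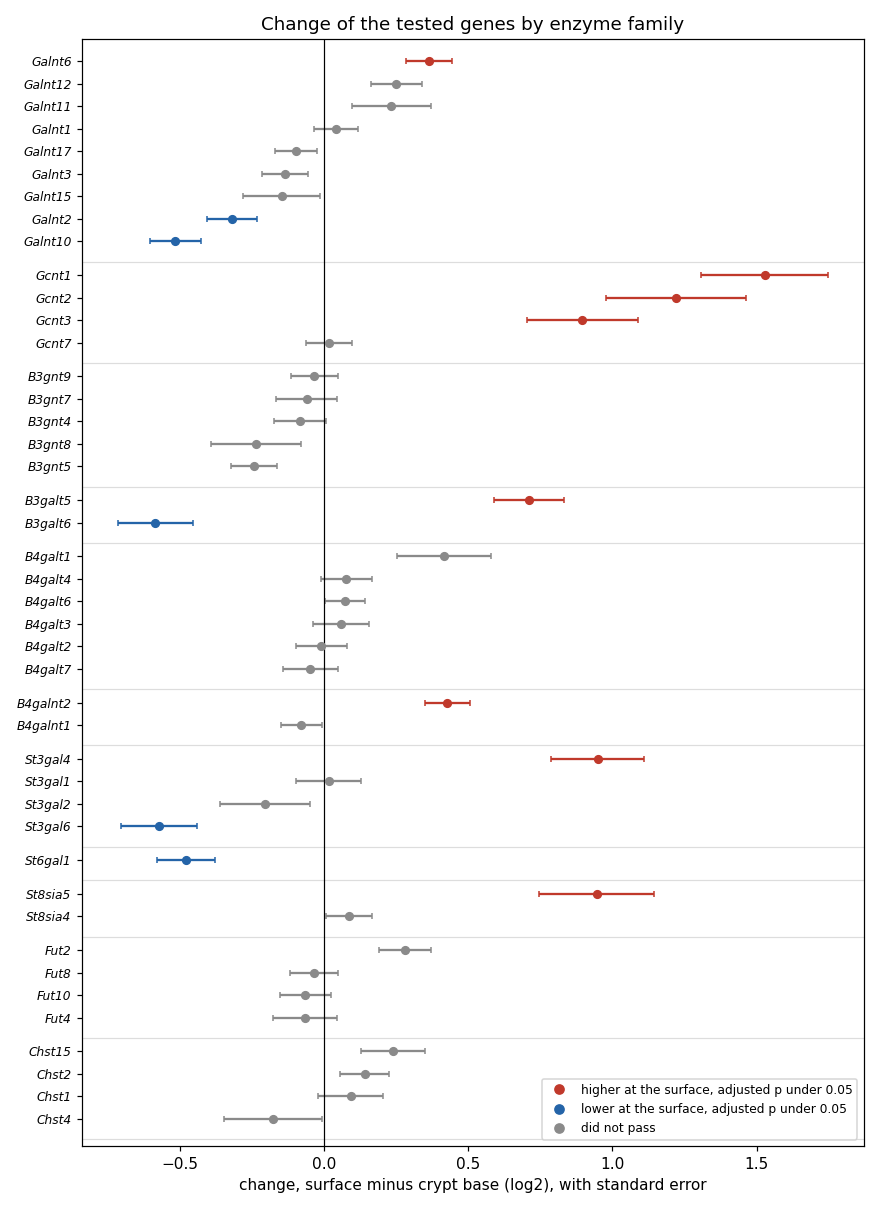
Change in log2 signal, surface minus crypt base (x axis), with its standard error for the 43 tested genes (y axis), grouped by enzyme family, with red for genes that rose, blue for genes that fell and grey for genes that did not pass. Gcnt1 and Gcnt2 stand farthest to the right, Gcnt3 lies at 0.90 and Gcnt7 near 0, and the B3gnt, B4galt, Fut and Chst families hold grey points only.

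Sialyltransferase genes of the St3gal, St6gal and St8sia families moved in both directions. Of 7 tested, 2 were higher and 2 lower, where 12.1% of all genes were higher and 10.1% lower. The St6galnac sialyltransferase genes tested lie outside the rule and did not pass. Changes were -0.13 for St6galnac2, -0.07 for St6galnac3, -0.10 for St6galnac4 and 0.20 for St6galnac6. St3gal4 (gene ID 20443) encodes an enzyme that caps N-acetyllactosamine chains with sialic acid. Its log2 signals were 8.83, 10.16, 9.46 and 9.65 at the crypt base and 10.29, 10.61, 10.39 and 10.62 at the surface. The groups did not overlap, and the spread was wider at the crypt base (SD 0.55, n = 4) than at the surface (SD 0.16, n = 4). Between means of 9.53 and 10.48 it rose by 0.95 ± 0.16 (SE), which is 1.93-fold (limma, adjusted p = 0.0142).

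St3gal6 (gene ID 54613), whose enzyme also caps N-acetyllactosamine with sialic acid, moved the opposite way. It gave 10.07, 10.09, 10.04 and 10.19 at the crypt base and 9.14, 9.88, 9.62 and 9.46 at the surface. The crypt base samples lay close together, and every surface sample was below them. The mean went from 10.10 ± 0.06 to 9.53 ± 0.31 (SD, n = 4 each), a change of -0.57 ± 0.13 (SE), which is 1.48-fold lower (adjusted p = 0.0299 by limma). Its other detected probe changed by -0.11 ± 0.08 and did not pass (adjusted p = 0.352).

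St6gal1 (gene ID 20440) encodes the main enzyme that caps N-glycans with sialic acid in a different linkage from that of the St3gal enzymes. Crypt base samples 1 to 4 gave 9.59, 10.10, 10.07 and 10.39, and surface samples gave 9.02, 9.93, 9.49 and 9.81. The ranges overlapped, because replicate 1 was low in both regions, and each surface sample was below the crypt base sample of the same number. The change was -0.48 ± 0.10 (SE), 1.39-fold lower, with an adjusted p of 0.0231 by limma, 0.218 without the block and 0.0726 with the block as a random effect. The other detected probe of St6gal1, near background, changed by -0.01 ± 0.08.

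St8sia5 (gene ID 225742) encodes an enzyme that adds sialic acid to sialic acid on gangliosides. The signals were 5.68, 5.53, 5.40 and 5.32 at the crypt base, where 2 of 4 were above the background level of 5.52, and 7.29, 5.84, 6.41 and 6.17 at the surface, where all 4 were. Surface 1 was the highest and surface 2 the lowest of the surface samples, and the groups did not overlap. The increase of 0.95 ± 0.20 (SE), 1.93-fold, had an adjusted p of 0.0239 by limma (0.0572 without the block), and it understates the difference, as the crypt base lies at background. St8sia4, which makes polysialic acid, changed by 0.09, and St3gal1 and St3gal2, which sialylate O-glycans and gangliosides, by 0.02 and -0.20, and none of these passed.

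The B3galt genes tested went opposite ways. B3galt5 (gene ID 93961), whose enzyme makes the type 1 chain that carries Lewis antigens in gut epithelium, gave 9.38, 9.75, 9.05 and 9.06 at the crypt base and 9.90, 10.19, 10.11 and 9.90 at the surface. No surface sample reached down to the highest crypt base sample. The change was 0.71 ± 0.12 (SE), or 1.64-fold, from 9.31 ± 0.33 to 10.02 ± 0.15 (SD, n = 4 each; adjusted p = 0.0145 by limma). B3galt6 (gene ID 117592) acts elsewhere, adding a galactose to the linker that ties glycosaminoglycans to proteoglycans. It gave 7.09, 6.88, 7.22 and 7.17 at the crypt base and 6.34, 6.74, 6.37 and 6.57 at the surface, again without overlap. Its change was -0.58 ± 0.13 (SE), 1.5-fold lower (adjusted p = 0.0269 by limma), and that of its other detected probe was -0.05 ± 0.08 (adjusted p = 0.687). Of all 9494 genes tested, 9.72% were higher at the surface without overlap of the groups and 9.59% lower without overlap, against 7 and 2 of the 43.

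B4galnt2 (gene ID 14422) encodes the enzyme of the Sda antigen, known from the mouse colon. Its signals were low at the crypt base, at 5.64, 5.67, 5.64 and 5.74, and rose to 5.96, 6.02, 6.14 and 6.28 at the surface. The groups did not overlap, and the signal rose by 0.43 ± 0.08 (SE), 1.35-fold, at an adjusted p of 0.0169 by limma. As the crypt base values lie close to background, this fold understates the difference. B4galnt1, which makes gangliosides, changed by -0.08 near background and did not pass.

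Among the genes that start O-glycans, 1 of 9 tested rose and 2 fell, a count near what 12.1% higher and 10.1% lower over all genes would give for a family of this size. Galnt10 (gene ID 171212), whose enzyme acts on peptides that already carry N-acetylgalactosamine, gave 10.35, 9.66, 9.99 and 9.77 at the crypt base and 9.82, 9.13, 9.68 and 9.08 at the surface. The ranges overlapped, while each pair fell by between 0.31 and 0.69. Its change was -0.51 ± 0.09 (SE), 1.43-fold lower, with an adjusted p of 0.0145 by limma and 0.157 without the block.

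Galnt2 (gene ID 108148), a widely expressed initiating enzyme, gave 8.65, 8.62, 8.63 and 8.36 at the crypt base and 8.21, 8.28, 8.52 and 7.97 at the surface. Its ranges overlapped too, and its change of -0.32 ± 0.09 (SE) was the weakest of the 13 by adjusted p (0.0469 by limma, and 0.142 without the block). It did not pass either with cyclic loess scaling (adjusted p = 0.0612), without a filter on dim probes (0.0580) or with eBayes in its trend and robust form (0.0685). Galnt6 (gene ID 207839), a relative of Galnt3, gave 5.69, 5.59, 5.47 and 5.68 at the crypt base, near background, and 5.95, 5.92, 5.81 and 6.20 at the surface. Those ranges did not overlap, and the change was 0.36 ± 0.08 (SE; adjusted p = 0.0256 by limma and 0.0505 without the block).

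The other Galnt genes tested did not pass. Changes were 0.25 for Galnt12, a colonic family member, 0.23 for Galnt11, 0.04 for Galnt1, -0.10 for Galnt17, -0.14 for Galnt3 and -0.15 for Galnt15. The probes of Galnt17 disagreed, since the dimmer of its detected probes rose by 0.39 ± 0.09 (adjusted p = 0.0349 over all detected probes by limma) and the brighter one changed by -0.10 ± 0.07.

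The B3gnt and B4galt families, which also extend chains, held no gene past the threshold in limma, and at an unadjusted p under 0.05 there were 1 lower and 1 higher. All 5 B3gnt genes tested, which add N-acetylglucosamine to galactose, had changes below 0 by the probe used. These were -0.24 for B3gnt5, which starts the lacto-series glycolipids, -0.24 for B3gnt8, -0.08 for B3gnt4, -0.06 for B3gnt7 and -0.03 for B3gnt9. Other detected probes changed by 0.02 for B3gnt7 and by 0.11, 0.0006 and 0.22 for B3gnt9, so a shared direction of the family is not shown. B4galt1, which makes N-acetyllactosamine, had the largest change that did not pass, 0.42 ± 0.16 (SE; adjusted p = 0.125 by limma). Its signals were 8.38, 8.63, 8.16 and 8.16 at the crypt base and 8.75, 8.48, 9.0 and 8.76 at the surface, with pair 2 moving against the others, and without replicate 2 it passed (0.61 ± 0.12, adjusted p = 0.0240). B3gnt8 also passed without replicate 2 (-0.42 ± 0.10, adjusted p = 0.0465). B4galt4, B4galt6, B4galt3, B4galt2 and B4galt7 changed by 0.08, 0.07, 0.06, -0.00876 and -0.05, with means at 6.0 or below.

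Of the fucosyl- and sulfotransferase genes, 4 tested in each family, none passed in limma, and 1 Fut and 0 Chst genes had an unadjusted p under 0.05. Fut2, the secretor enzyme that makes the H antigen of mucosal secretions, came nearest. It gave 6.29, 6.39, 6.19 and 6.10 at the crypt base and 6.47, 6.82, 6.29 and 6.52 at the surface. Every pair was higher at the surface, but the ranges overlapped and the change of 0.28 ± 0.09 (SE) missed the threshold (adjusted p = 0.0745 by limma). Fut4, which makes Lewis X, changed by -0.07, Fut10 by -0.06 and Fut8, the core fucosyltransferase of N-glycans, by -0.03. Among sulfotransferases Chst15, which oversulfates chondroitin, changed by 0.24, Chst2 and Chst4, which sulfate N-acetylglucosamine, by 0.14 and -0.18, and Chst1, of keratan sulfate, by 0.09. A p that misses the threshold does not show equal levels, and signals near background understate differences.

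The 35 genes not tested were dim. They were B3galt1, B3galt2, B3gnt2, B3gnt3, B4galnt3, B4galnt4, B4galt5, Chst3, Chst5, Chst7, Chst8, Chst9, Chst10, Chst11, Chst12, Chst13, Chst14, Fut1, Fut7, Fut9, Fut11, Galnt4, Galnt5, Galnt7, Galnt9, Galnt13, Galnt14, Galnt18, St3gal3, St3gal5, St6gal2, St8sia1, St8sia2, St8sia3 and St8sia6. Of these, 20 lay under background on all 8 arrays and the other 15 were above it on at most 2 arrays, with log2 signals over all 35 from 4.34 to 5.72. A dim probe may miss a transcript that is present, so nothing follows about these genes.

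**Figure D3:**
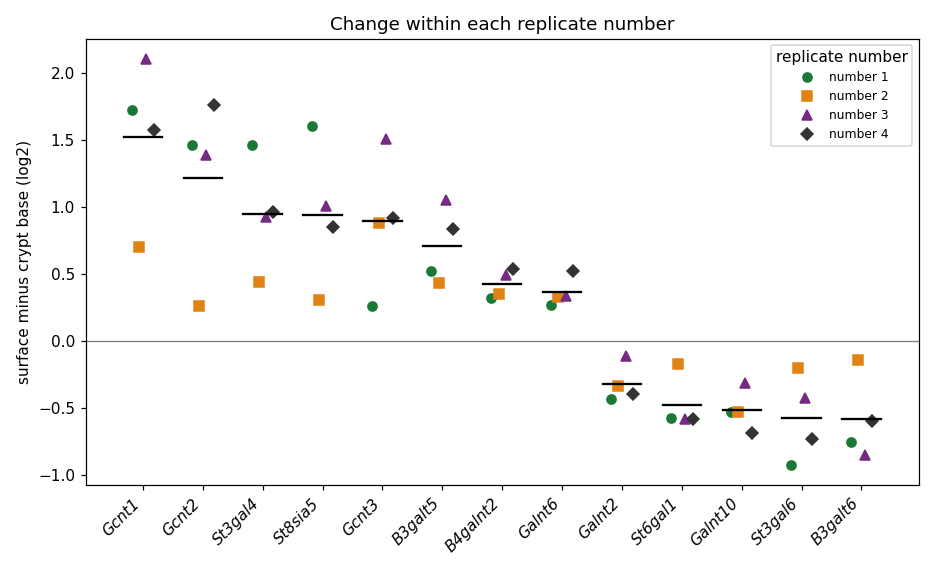
Change in log2 signal, surface minus crypt base (y axis), within each replicate number (symbols) for the 13 genes past the threshold (x axis), with black bars for the fitted change. The change was smallest in size within number 2 for 8 of the 13 genes, such as 0.26 for Gcnt2 against 1.39 to 1.76 within the other numbers.

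The pairs differed in size of change. For 8 of the 13 genes (61.5%) the smallest change was within number 2, as it was for 68.6% of all genes past the threshold, so these genes followed the table as a whole. Within number 2 the change was 0.70 for Gcnt1, 0.26 for Gcnt2, 0.44 for St3gal4 and -0.14 for B3galt6. Within number 1 it was smallest for Gcnt3 (0.26), B4galnt2 (0.32) and Galnt6 (0.27), and within number 3 for Galnt10 (-0.31) and Galnt2 (-0.11).

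Among glycan transferases outside these families 24 were tested, of which 7 rose and 0 fell by limma. At an unadjusted p under 0.05 there were 8 higher and 1 lower. That is 29.2% past the threshold, all of them higher, against 12.1% higher and 10.1% lower (22.2% in all) over all genes. It is given as a count and not as a result about the list. Ugcg, which makes glucosylceramide, rose by 0.82 ± 0.22 (SE), Mgat4a, which branches N-glycans, by 0.63 ± 0.11, Mgat3, which adds the bisecting N-acetylglucosamine, by 0.52 ± 0.10 and C1galt1, which makes the core 1 chain that Gcnt1 then branches, by 0.47 ± 0.07. The probe of Mgat4a was dim, with a mean log2 signal of 5.51 at the crypt base, at background, and was detected on 6 arrays. C1galt1c1, the chaperone of C1galt1, changed by 0.12 and did not pass. Without the replicate block 4 of the 24 passed, against 13.3% of all genes, and Ugcg was not among them (adjusted p = 0.0588 by limma). The number that rose was 0 without replicate 1 (0.0% of all genes), where 7 of the 24 were higher at an unadjusted p under 0.05. It was 6 without replicate 2 (12.2% of all genes), 2 without replicate 3 (6.73%), 2 without replicate 4 (6.11%) and 3 without surface 4 (7.06%).

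Of 28 genes that supply sugar and sulfate donors, 3 rose and 5 fell, 28.6% past the threshold. Over all genes 12.1% were higher and 10.1% lower, 22.2% in all. Those that fell were Nans (-0.77 ± 0.14, SE), which makes sialic acid, Gmds (-0.66 ± 0.10), of GDP-fucose synthesis, and the Golgi transporter genes Slc35b2 (-0.50 ± 0.13) for activated sulfate, Slc35a1 (-0.49 ± 0.12) for CMP-sialic acid and Slc35a3 (-0.38 ± 0.09) for UDP-N-acetylglucosamine. Those that rose were Uap1l1 (0.81 ± 0.09), a relative of the UDP-N-acetylglucosamine pyrophosphorylase gene, Slc35d1 (0.73 ± 0.10), a transporter of UDP-sugars, and Papss1 (0.35 ± 0.10), which makes activated sulfate. Another detected probe changed less for Nans (-0.35) and Slc35d1 (0.41), and more for Slc35a3 (-0.57). Without the block, where 13.3% of all genes passed, only Nans and Slc35d1 did. Gmds (adjusted p = 0.141), Slc35a1 (0.149), Slc35b2 (0.112), Slc35a3 (0.128), Uap1l1 (0.124) and Papss1 (0.110) did not pass. Without replicate 1 none passed by limma, as for all genes, and 4 were higher and 6 lower at an unadjusted p under 0.05. Without replicate 2 the counts were 4 higher and 4 lower (12.2% and 12.1% of all genes). They were 2 and 3 without replicate 3 (6.73% and 4.26%) and 2 and 1 without replicate 4 (6.11% and 2.31%). Leaving out surface 4 gave 1 and 1 (7.06% and 5.76%).

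**Figure D4:**
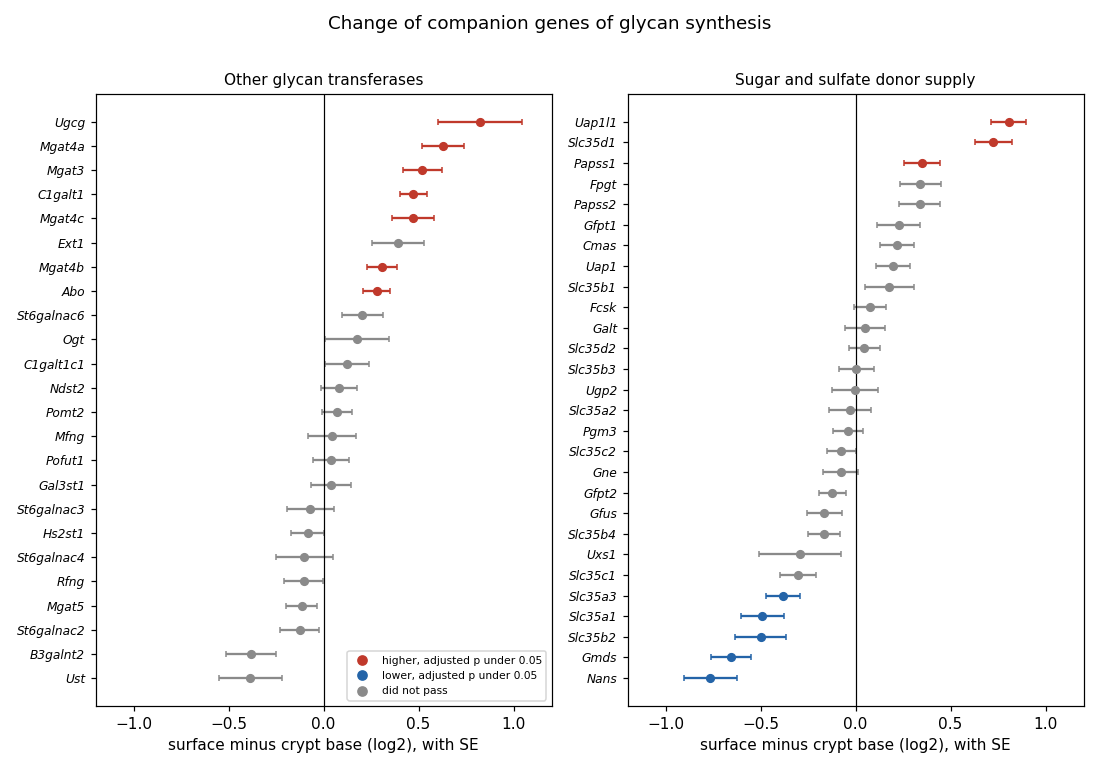
Change in log2 signal, surface minus crypt base (x axis), with standard error for 24 other glycan transferases and 28 donor supply genes (y axis), with red for genes that rose, blue for genes that fell and grey for genes that did not pass. In the left panel 7 points are red and none blue, and in the right panel 3 are red and 5 blue, with Nans lowest at -0.77.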

How the data were processed

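RNA was amplified in successive rounds and labelled with biotin, per the labels' protocols. The deposited log2 values cover 46632 probes. Per the submitters' processing notes GenomeStudio was used, while no source used here gives the normalizing step. Sorted, the 8 columns differed by at most 0.01 at 99.0% of ranks, so the values were tested as deposited. A second deposited table holds a linear intensity signal and a detection p-value per probe, per the file headers, in 16 columns that match no label. Its log2 signals equalled the 8 log2 columns within 1e-06, and it was used only for the number of arrays with a detection p under 0.05. Background, a log2 signal of 5.52, is the level exceeded by as many probe and array pairs as had such a p.

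Probes with 1 platform symbol (29976) named 17711 genes, with names and gene IDs from RefSeq on GRCm38.p6. The 9494 genes detected on at least 4 arrays were fitted in limma 3.58.1 (R 4.3.3, statmod 1.5.0) with replicate number as a fixed block, two-sided, with Benjamini-Hochberg adjustment. The fit was checked on simulated data. The labels do not say that the number marks the mouse. Deviations of same-numbered samples correlated across genes at 0.45, 0.39, -0.04 and 0.48 for numbers 1 to 4. Those of unlike number ran from -0.49 (surface 2 with crypt base 4) to 0.31 (surface 2 with crypt base 3), and surface 3 reached 0.27 with crypt base 2. The pairing by number is therefore uncertain, above all for number 3, and unblocked values are given where calls differ. The array surface 4 stood apart, with 144 probes of named genes more than 2 log2 units below the median of the others, against 2 to 15 on each other array. The number of arrays limits the precision. The genes, companion lists, markers and alternatives were chosen with earlier results of these data known. Every member is named, with values in all samples for those past the threshold, and for B4galt1 and Fut2, chosen after their values were seen. Companion genes named are those past the threshold with the largest changes, and C1galt1c1 and the St6galnac genes, chosen after their values were seen.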

Additional observations from a re-analysis of the deposited data

Results flagged for a closer look

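Among 86 sets of 4 samples (43 genes in 2 regions), 2 held a sample far from the other 3, where chance flags about 1 in 20 sets. Galnt2 in crypt base 4 had a log2 signal of 8.36, against 8.62 to 8.65 in the other crypt base samples. Chst2 in surface 1 had a log2 signal of 5.61, near background, against 5.84 to 5.87 in the other surface samples. Galnt2 is also low in surface 4 (7.97), so the change within number 4 was -0.40.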

How the results depend on the processing

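Of the 43 genes, 12 or 13 passed under 8 settings (random-effect block, array centring, cyclic loess, floor at background, no filter on dim probes, detection on all arrays, mean of detected probes, eBayes with trend and robust), against 13 in the report. Without the replicate block the counts were 5 higher and 2 lower. Without surface 4, with the block as a random effect, they were 5 and 1, an alternative added after seeing the data. Leaving out each replicate number in turn gave 0 to 8 higher and 0 to 5 lower. At 0 higher and 0 lower without replicate 1, limma gave an unadjusted p under 0.05 to 10 and 5 of the 43 genes, and at 0 lower without replicate 4 to 6. Under the alternatives none of the 13 genes past the threshold reversed its sign, and 11 of the other 30 did in at least 1. For the 13, whose pairs all moved the same way, leaving out a number could not turn the sign. With the mean of detected probes Galnt17 changed by 0.15 and B3gnt9 by 0.073, and without surface 4 B4galt7 changed by 0.00726 and Gcnt7 by -0.00397. Leaving out a replicate number turned the sign of Chst4 (-0.28 to 0.041), Fut4 (-0.15 to 0.043), B3gnt7 (-0.15 to 0.015), B4galt7 (-0.088 to 0.044), Fut8 (-0.073 to 0.00546), B3gnt9 (-0.087 to 0.00234), B4galt2 (-0.062 to 0.061), St3gal1 (-0.058 to 0.14), Gcnt7 (-0.013 to 0.072) and B4galt3 (-0.033 to 0.11). The cause was not tested. Probes other than the one used had under 50% of the change in 4 of the 5 genes past the threshold that had another detected probe (Gcnt3, B3galt6, St3gal6 and St6gal1), and in none the opposite sign. Signals near background limit what dim genes can show.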
